A study of Mus musculus with 18 samples.

Results

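Glutathione synthesis and recycling genes, the glutathione transferases and the glutathione peroxidases were examined in liver RNA-Seq of mice given asparaginase (ASNase). Members were taken by gene name: the alpha, kappa, mu, omega, pi, theta and zeta transferases (Gsta, Gstk, Gstm, Gsto, Gstp, Gstt and Gstz), the microsomal transferases Mgst1 to Mgst3, the peroxidases Gpx1 to Gpx8, and Gclc, Gclm, Gss, Gsr, Ggt1 and Chac2. The rule found 38 genes among 37303 in the table, and all 38 had a usable estimate in every group. The 18 mice formed 6 groups of 3: wild type (WT), Gcn2-/- and Atf4-/- mice, each on the C57BL/6J background and given either ASNase or the PBS excipient. ASNase was injected intraperitoneally on 8 successive days at 3 IU per gram body weight, and by the labels the mice were killed 7.5 h after the last injection. The labels give ages of 8 to 12 weeks in one field and 8 to 16 weeks in another. Both deletions are homozygous and affect the whole body, so a difference in liver cannot be assigned to liver cells alone, and loss of Atf4 is known to impair several other organs, the lens, skeleton and red cell lineage among them. Males numbered 1 of 3 in WT PBS and in both Gcn2-/- groups, and 2 of 3 in WT ASNase and in both Atf4-/- groups. The makeup by sex was therefore equal within each knockout strain, and unequal in the WT response, between Atf4-/- and WT under PBS, and between Gcn2-/- and either other strain under ASNase.

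Glutathione is a tripeptide of glutamate, cysteine and glycine that liver makes in large amounts. Glutamate-cysteine ligase, with the catalytic subunit GCLC and the modifier subunit GCLM, joins the first pair of amino acids, and glutathione synthetase (GSS) adds glycine. Transferases attach glutathione to reactive compounds, peroxidases use it to reduce peroxides, and glutathione reductase (GSR) restores the oxidized form with NADPH. Asparaginase depletes the blood of asparagine and, less so, of glutamine. GCN2, encoded by Eif2ak4, is a kinase that senses a lack of amino acids and then phosphorylates eIF2, after which translation of the transcription factor ATF4 increases.

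The values are FPKM, fragment counts scaled for transcript length and library size, which allow levels of genes of different length to be compared. The deposited table holds 1 value per gene and group, estimated by Cuffdiff from the 3 libraries of the group together, with an interval. Where 6 values follow each other, they stand in the order WT, Gcn2-/- and Atf4-/-, each with PBS before ASNase. There is no SD or n for any value below, no p-value, and no replicate check of any difference. Among genes over an FPKM of 3 the median distance from a value to its interval bound was between 51.3% and 54.2% of the value across the 6 groups, and for members between 54.3% and 57.1%, so that only large differences exceed the error. Depth per library is not held in these values. Differences between groups are given as log2(FPKM + 0.1), a scale on which changes of low genes appear smaller than they are. A gene entered a comparison when both values were usable and above 0 and either was over FPKM 3. It was called lower (it fell) or called higher (it rose) when the log2 difference was also over 1.5 in size and the intervals of the groups did not overlap. The error beside a log2 difference is the root of the summed squares of both interval half-widths on the log2 scale. Because livers were measured whole, fewer cells of a type and less RNA per cell cannot be told apart. The FPKM of Eif2ak4 did not separate the Gcn2-/- groups (2.31 and 2.96) from the other groups (2.19 to 3.14). Atf4 was between 29.3 and 32.3 in Atf4-/- livers and between 50.4 and 68.1 in the others. The paper reported from read density that an exon of Gcn2 was missing in Gcn2-/- mice, and Atf4 in Atf4-/- mice. It also measured Atf4 by RT-qPCR. An FPKM for a whole gene does not resolve the loss of an exon. Nor does it show which part of Atf4 was read in Atf4-/- livers, so intact Atf4 mRNA cannot be inferred from it. In skeletal muscle, lung and pancreatic acinar markers the groups also differed, with the values given further below.

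Upstream sequence is shown for the genes in which the alpha class differed most between strains, and for Gsta3 and Gclm, which carry the letters of a regulatory element. The sequences are the 250 bases before the transcription start in RefSeq on GRCm38.p6, the same assembly as the mm10 build of the deposited values. They are written 5′ to 3′ on the strand of the gene. The gene spans given further below are from GENCODE M21 and can start elsewhere. The Gsta2 stretch lies within its GENCODE span (chr9:78331018-78355788), and the Gsta1 stretch reaches slightly into its own. In Gsta1 and Gsta2 the capitals mark the longest run of identical bases that both stretches hold, 29 bases, which was found in 3 of the 32851 windows of the table, those of Gsta1, Gsta2 and Gm3776. In Gsta3 and Gclm the capitals mark the core of the antioxidant response element, TGACNNNGC, a motif known to be bound by NRF2.
Gsta1 (chr9:78230419-78230668, plus strand): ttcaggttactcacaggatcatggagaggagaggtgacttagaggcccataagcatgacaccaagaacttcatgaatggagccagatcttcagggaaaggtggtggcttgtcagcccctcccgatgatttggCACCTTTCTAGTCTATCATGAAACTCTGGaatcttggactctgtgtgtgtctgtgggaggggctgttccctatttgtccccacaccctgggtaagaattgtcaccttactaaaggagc
Gsta2 (chr9:78347146-78347395, minus strand): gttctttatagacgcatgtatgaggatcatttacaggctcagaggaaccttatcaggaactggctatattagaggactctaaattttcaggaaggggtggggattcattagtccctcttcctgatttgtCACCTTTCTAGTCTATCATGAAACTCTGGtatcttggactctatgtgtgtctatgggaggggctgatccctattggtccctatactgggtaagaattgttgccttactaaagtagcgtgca
Gsta3 (chr1:21240335-21240584, plus strand): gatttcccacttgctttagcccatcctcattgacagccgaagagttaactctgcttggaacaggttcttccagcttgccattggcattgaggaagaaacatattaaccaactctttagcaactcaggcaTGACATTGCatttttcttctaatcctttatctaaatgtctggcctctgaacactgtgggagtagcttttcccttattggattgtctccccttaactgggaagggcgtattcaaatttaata
Gclm (chr3:122245307-122245556, plus strand): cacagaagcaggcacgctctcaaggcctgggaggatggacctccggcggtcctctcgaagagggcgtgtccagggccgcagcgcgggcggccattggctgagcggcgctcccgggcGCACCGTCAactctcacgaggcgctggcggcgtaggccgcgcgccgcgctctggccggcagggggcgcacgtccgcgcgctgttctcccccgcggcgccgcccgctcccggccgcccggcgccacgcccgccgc

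A promoter window was found for 34 of the 38 members, with 49 windows in all, and none for Gclc, Gsr, Gsta4 and Gstt2. The core TGACNNNGC, searched on both strands, occurred in the windows of 6 members (Gclm, Ggt1, Gsta3, Gstm5, Gstm7 and Mgst1), which is 14.3% of the member windows against 10.2% of all windows. In Gclm it lies on the opposite strand, between 126 and 134 bases before the start, and in Gsta3 on the strand of the gene, between 113 and 121 bases before it. The letters TGATGNAA, the core of the C/EBP-ATF response element through which ATF4 is known to act, occurred in 3.45% of all windows and in 0 of the 49 member windows. These matches describe the letters only. The similarity of the Gsta1 and Gsta2 genes extends to their transcripts: 44.6% of the 50-base runs of Gsta1 transcripts also occur in Gsta2, and 89.7% occur in some other gene, chiefly Gm3776, so that reads of these genes could have been shared among them. Gsta2 shares 47.4% of such runs with other genes, Gsta1 among them, and Gstp1 shares 51.0% with Gstp2. Gstm3 shares 28.8% with other genes, Gstt3 20.6%, Gstm1 19.9% and Gpx4 51.4%, in the last case with pseudogenes. The values of these genes are to that extent uncertain.

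Levels of the members spanned a wide range. Mgst1, a microsomal transferase and peroxidase, was the most abundant member in every group and held between 45.3% and 65.0% of the summed FPKM of all 38. Gsta3, Gpx1, Gstm1 and Gstp1 followed in WT PBS livers with FPKM values of 1680, 1673, 1124 and 796. At the other end, 8 members never exceeded FPKM 3 in any group: Ggt1, Gstt4, Gsto2, Mgst2, Gpx2, Gpx5, Gpx6 and Gpx8. The other 30 were over this limit in at least 1 group. Of these, 16 were called in at least 1 of 8 comparisons and 14 in none.

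After ASNase 12 members fell in at least 1 of the knockout strains and none was called in WT mice. In WT livers 30 members were compared and 0 were called, with a median log2 difference of -0.13 against -0.01 for all 9084 genes compared, of which 0.881% were called in either direction. In Gcn2-/- livers 8 of 29 members fell and 1 rose, with a median of -1.33 against 0.02 for all genes, of which 2.13% fell and 1.56% rose. In Atf4-/- livers 10 of 27 fell and 1 rose, with a median of -1.48 against 0.08 for all genes, of which 4.63% fell and 2.74% rose. The 1 member that rose was Gpx3 in both strains. Lower values after ASNase, called or not, were found for 22 of 30 members in WT, 26 of 29 in Gcn2-/- and 23 of 27 in Atf4-/- livers, as compared with 51.0%, 48.6% and 46.2% of all genes.

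**Figure D1:**
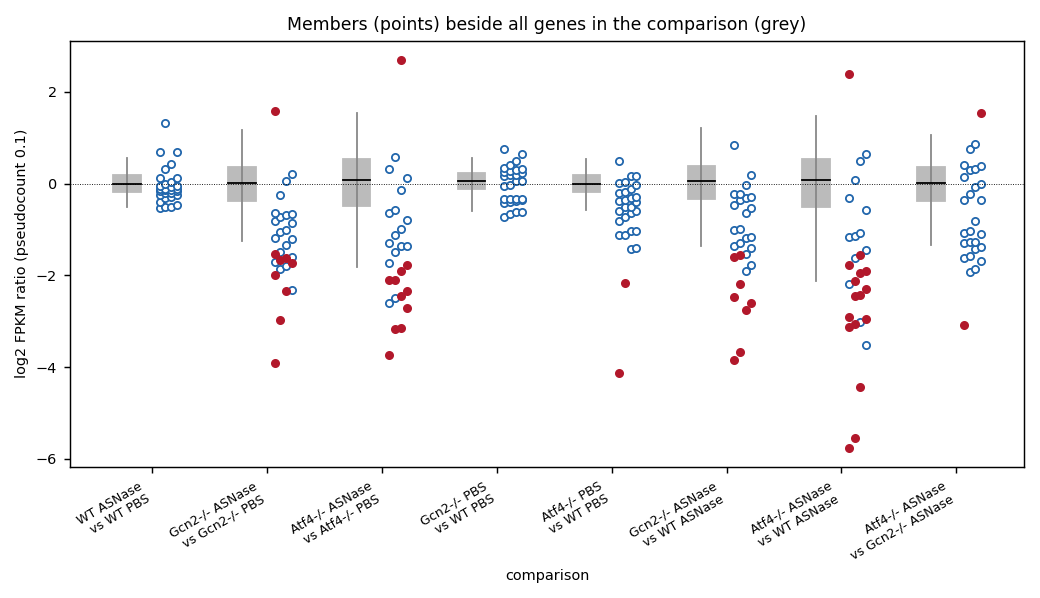
The log2 FPKM ratio (vertical axis) in each of the 8 comparisons (horizontal axis). Grey boxes span the 25th to 75th and grey lines the 5th to 95th percentile of all genes compared, with the median in black. Circles are members, filled red where called and open where not. The members lie mostly below the box of all genes after ASNase in the knockout strains and around it in WT livers.

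The same members can be read against the WT ASNase group. In Gcn2-/- livers given ASNase 8 of 29 members were lower than in WT livers given ASNase and 0 were higher, against 2.59% and 1.83% of all genes, and the median was -1.18. In Atf4-/- livers given ASNase 15 of 29 were lower and 1 was higher, against 5.66% and 2.59% of all genes, and the median was -1.96. Between the knockout strains under ASNase, where males were 2 of 3 in Atf4-/- and 1 of 3 in Gcn2-/- livers, 1 of 28 members was lower in Atf4-/- (Gsta1) and 1 was higher (Gpx3), against 2.29% and 0.898% of all genes, and the median was -0.93 against 0.01 for all genes. Without ASNase, no member of 29 differed between Gcn2-/- and WT livers, where 1.04% of all genes were called in either direction, and the median was 0.05 against 0.06. In Atf4-/- livers given PBS 2 of 29 members were lower than in WT (Gsta1 and Gsta2) and 0 were higher, against 0.763% and 0.354% of all genes. The median there was -0.51 against 0.00 for all genes, with 24 of 29 members below 0, as compared with 49.6% of all genes.

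**Figure D2:**
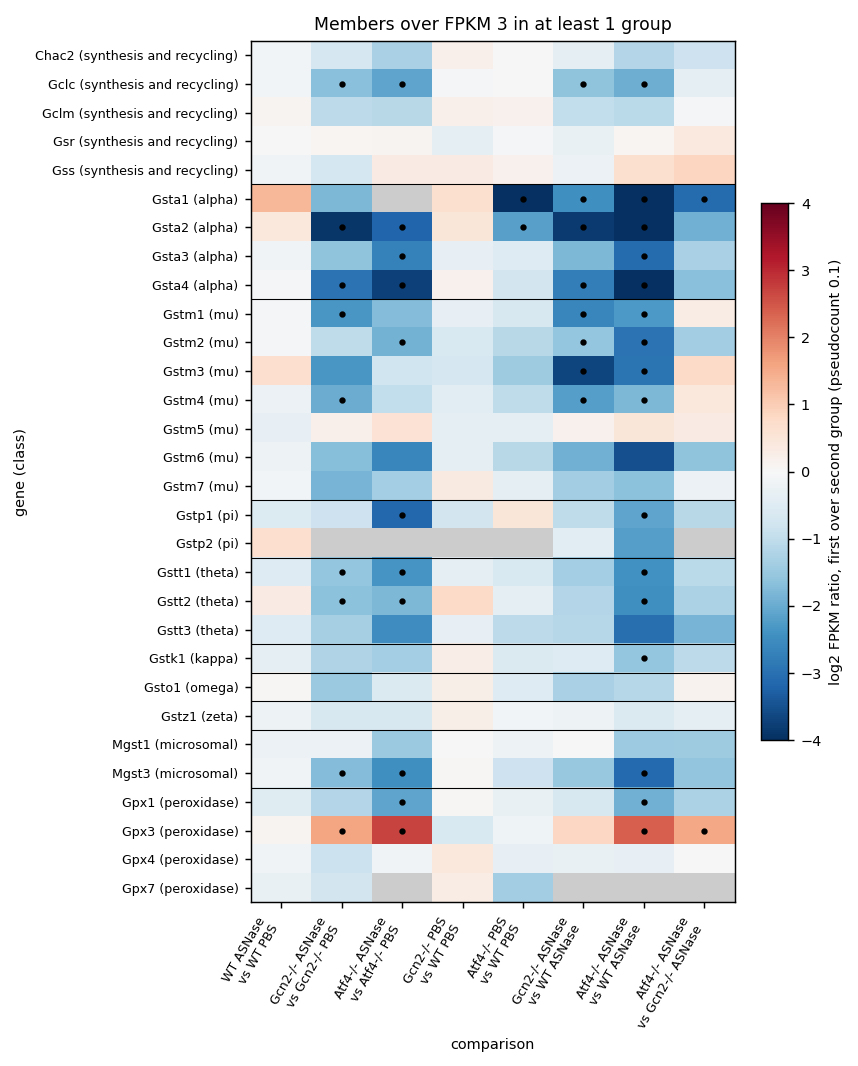
The log2 FPKM ratio of the first over the second group, as colour, for the 30 members over FPKM 3 in at least 1 group (rows, by class) in the 8 comparisons (columns). Dots mark calls, and grey cells are pairs in which the gene did not meet the FPKM condition. Blue fills most rows in the comparisons with a knockout group given ASNase, and Gpx3 is the row with red dots.

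Summed FPKM was also compared by class. The 21 cytosolic and mitochondrial transferases together had sums of 5278, 4666, 4398, 1615, 4142 and 1020. The ASNase sum was thus 88.4% of the PBS sum in WT, 36.7% in Gcn2-/- and 24.6% in Atf4-/- mice. For the 6 synthesis and recycling genes the corresponding shares were 100%, 51.9% and 57.8%, and for the 8 peroxidases 75.8%, 47.1% and 37.7%. The microsomal sum, nearly all Mgst1, was 84.7%, 84.0% and 35.7% of its PBS level. A sum carries no interval and is set by its most abundant genes.

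**Figure D3:**
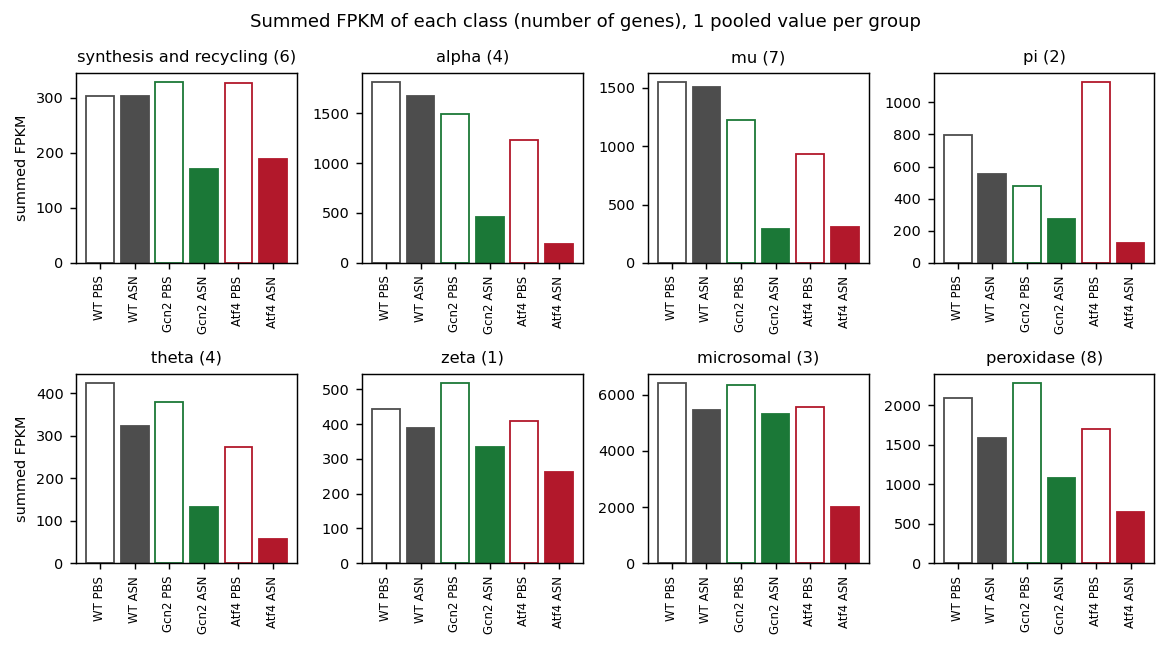
Summed FPKM (vertical axes, from 0) of 8 classes in the 6 groups, with the number of genes in each class in brackets; open bars are PBS and filled bars ASNase. In every panel both knockout ASNase bars are lower than the PBS bar of the same strain.

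Among the synthesis and recycling genes, Gclc (chr9:77754535-77794485, ENSMUSG00000032350), the catalytic subunit of the rate-limiting ligase, was the 1 of 6 that fell. Its FPKM was 70.8, 65.5, 68.0, 21.5, 72.3 and 16.8. The ASNase intervals of the knockout strains (12.4 to 30.6 and 9.83 to 23.8) lay below all 4 other intervals, the lowest bound of which was 34.1. The log2 change with ASNase was -1.66 (error 0.96) in Gcn2-/- and -2.10 (error 1.06) in Atf4-/- livers, as compared with -0.11 in WT.

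Gclm, the modifier subunit, was 135, 147, 154, 74.0, 152 and 70.1. Its ASNase value was 48.1% of the PBS value in Gcn2-/- and 46.1% in Atf4-/- livers, but the intervals were wide (13.8 to 126 in Atf4-/- ASNase) and Gclm was not called. Gss, which adds glycine, was 44.7, 40.1, 55.5, 34.3, 49.96 and 62.7, with overlapping intervals. Gsr, the reductase, was the steadiest of the class, at 26.3, 26.3, 20.3, 21.2, 25.6 and 27.9. Chac2, which cleaves glutathione, was 26.9, 24.9, 30.8, 19.5, 27.1 and 11.0, and was called in no comparison. Ggt1, the enzyme that breaks down extracellular glutathione, was between 0.133 and 0.544.

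In the alpha class, whose enzymes detoxify products of lipid peroxidation among other compounds, all 4 genes were lower in Atf4-/- than in WT livers given ASNase. Gsta2 (chr9:78331018-78355788) was 46.8, 62.8, 65.9, 4.31, 10.4 and 1.07. It fell after ASNase by 15.3-fold in Gcn2-/- (log2 -3.90, error 1.35) and by 9.70-fold in Atf4-/- livers (log2 -3.16, error 2.44), and was 58.8-fold lower in Atf4-/- than in WT livers under ASNase. It was also lower in Atf4-/- than in WT livers under PBS, by 4.52-fold.

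Gsta1 (chr9:78230656-78242684) was 13.7, 34.2, 21.4, 6.13, 0.687 and 0.640. Both Atf4-/- values were low without regard to treatment, with upper bounds of 1.44 and 1.33, and neither value reached the FPKM limit, so that its response to ASNase was not called either way there. Under PBS it was lower in Atf4-/- than WT livers by a log2 difference of -4.13 (error 2.16). In WT livers the intervals of Gsta1 overlapped (6.19 to 21.2 under PBS and 16.8 to 51.6 under ASNase), and in Gcn2-/- livers they overlapped narrowly, at a log2 change of -1.79.

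Gsta4 (chr9:78182774-78209349), which conjugates the lipid peroxidation product 4-hydroxynonenal, was 67.2, 64.9, 75.3, 9.54, 40.3 and 2.91. Its level fell by 7.89-fold in Gcn2-/- and 13.8-fold in Atf4-/- livers, and neither ASNase interval (4.66 to 14.4 and 0.877 to 4.95) reached the 23.6 that was the lowest bound of the other groups. Gsta3 (chr1:21240589-21265661), the most abundant transferase of the class, was 1680, 1511, 1327, 439, 1183 and 180. It fell by 6.57-fold in Atf4-/- livers (log2 -2.71, error 1.35). In Gcn2-/- livers its log2 difference of -1.60 passed the limit of fold, but the intervals overlapped (517 to 2137 and 176 to 702). Gsta1, Gsta2 and Gsta4 lie together on chromosome 9, and Gsta3 lies on chromosome 1.

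The 7 mu class genes lie in one cluster on chromosome 3, and 6 of them were lower in both knockout ASNase groups than in the other 4 groups. Gstm1 (chr3:108012255-108017973), the most abundant of them, was 1124, 1070, 891, 176, 716 and 216, and Gcn2-/- ASNase was the lowest group. It fell by 5.07-fold in Gcn2-/- livers (log2 -2.34, error 1.18), whereas in Atf4-/- livers the intervals overlapped (306 to 1127 and 95.2 to 337). Gstm4 was 57.7, 48.9, 42.8, 10.6, 28.3 and 14.2, and fell by 4.03-fold in Gcn2-/- livers alone.

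Gstm2 was 98.8, 94.7, 64.4, 32.0, 45.6 and 12.2. It fell in Atf4-/- livers by 3.74-fold, and under ASNase was lower in both knockout strains than in WT, by 2.96-fold in Gcn2-/- and 7.76-fold in Atf4-/- livers. Gstm3 was 79.4, 128, 50.2, 9.98, 29.3 and 16.9, lower under ASNase than in WT by 12.8-fold and 7.55-fold. Gstm6 ranged from 8.13 in Atf4-/- ASNase to 108 in WT PBS livers and Gstm7 from 18.8 to 79.9, both without a call. Gstm3 and Gstm6 share 1 locus in the deposited table. Gstm5 did not follow the others: its FPKM was 15.6, 12.4, 12.2, 14.2, 11.7 and 17.6, and it was the 1 mu gene on the plus strand of the chromosome. Under PBS the 7 mu genes had a median log2 difference of -1.03 between Atf4-/- and WT livers, all below 0, but none passed the limits.

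**Figure D4:**
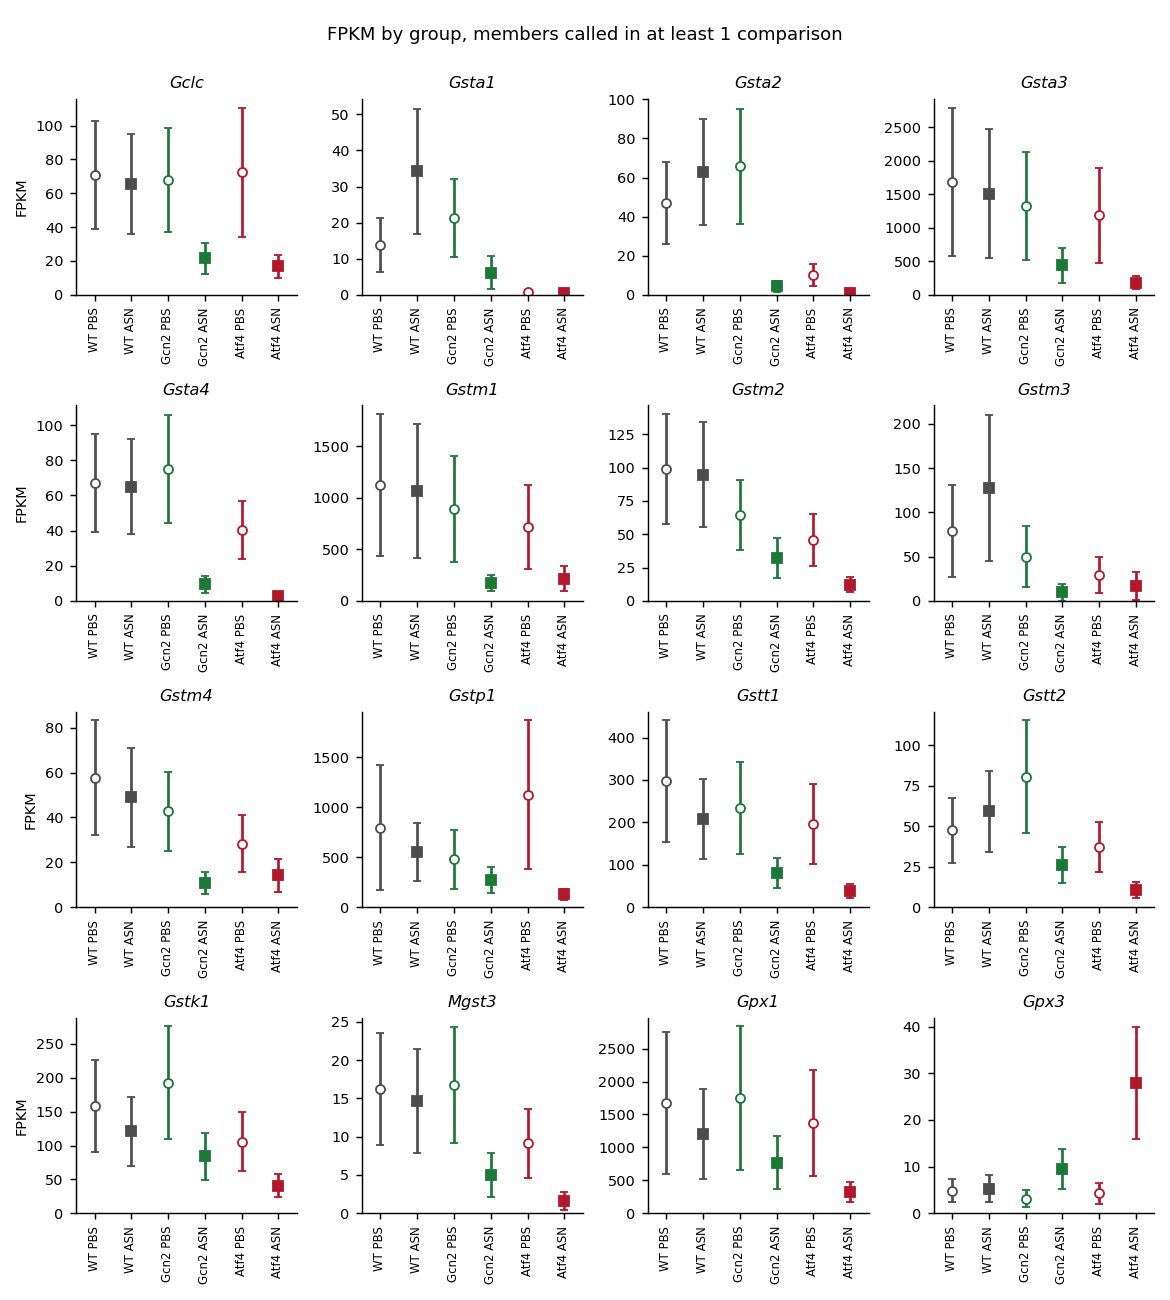
FPKM (vertical axes, linear from 0) of the 16 members called in at least 1 comparison, in the 6 groups; open circles are PBS, filled squares ASNase, grey WT, green Gcn2-/- and red Atf4-/-, and bars are the Cuffdiff intervals of the pooled values. In 15 panels each knockout ASNase value is below the PBS value of its strain, and in the Gpx3 panel it is above.

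Gstp1 (chr19:4035407-4037985), a pi class transferase known to be more abundant in livers of male than female mice, was the member whose response differed most between the knockout strains. Its values were 796, 550, 478, 272, 1123 and 127. It fell by 8.87-fold in Atf4-/- livers (log2 -3.15, error 1.31), where both groups had 2 males among 3 mice. In Gcn2-/- livers the log2 change was -0.82, with overlapping intervals (184 to 772 and 146 to 397). The difference of both responses was -2.33 (error 1.82), over the limit of 1.5 and over its error, as held for 1 of 27 members and 3.37% of 8911 genes. A list of 8 liver genes known to be male-predominant had summed FPKM of 1709, 2009, 1160, 496, 2777 and 249. After ASNase 6 of its 8 genes fell in Atf4-/- and 5 of 7 in Gcn2-/- livers, against 4.63% and 2.13% of all genes. A list of 8 female-predominant genes summed to 333, 194, 293, 266, 393 and 189. Of these, 3 of 8 fell in Atf4-/- and 1 of 6 in Gcn2-/- livers, so falls were not limited to the male-predominant list. Of 4 Y-linked genes none was called, and their sum was 19.8, 35.2, 19.7, 21.9, 39.4 and 45.9. The part of the male-predominant program in the Gstp1 result was not tested. Gstp2 reached no more than 3.08.

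In the theta class, which handles small halogenated compounds, Gstt1 (chr10:75783813-75798584) was 297, 207, 234, 80.7, 196 and 38.4 and fell by 2.89-fold in Gcn2-/- and 5.11-fold in Atf4-/- livers. Gstt2 was 47.4, 59.1, 80.5, 26.0, 37.0 and 10.7 and fell by 3.10-fold and 3.46-fold. The lowest value of each was that of Atf4-/- ASNase livers. Gstt3 ranged from 81.3 in WT PBS to 6.96 in Atf4-/- ASNase livers, but its intervals all reached 0 and it was not called. Gstt4 was at or near 0 in all groups, with a highest value of 0.0320.

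In the kappa, zeta and omega classes, the mitochondrial and peroxisomal transferase Gstk1 was 159, 121, 193, 84.0, 106 and 41.0. It was lower in Atf4-/- than in WT livers under ASNase, by 2.95-fold, while its response to ASNase in Atf4-/- livers had separate intervals and a log2 difference of -1.37 that missed the limit. Gstz1, which acts in the breakdown of tyrosine, ranged only from 261 to 520. Gsto1, an omega transferase, was 96.7, 99.4, 115, 40.8, 67.6 and 45.1. Its log2 change of -1.49 in Gcn2-/- livers had separate intervals and missed the limit narrowly.

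Of the microsomal transferases, Mgst3 was 16.2, 14.6, 16.8, 5.002, 9.16 and 1.60, and fell by 3.36-fold in Gcn2-/- and 5.71-fold in Atf4-/- livers. Mgst1 was 6408, 5428, 6323, 5319, 5546 and 1984. Its Atf4-/- ASNase value was the lowest, but the intervals were wide (906 to 10190 and 785 to 3182 in Atf4-/- livers) and overlapped in every comparison.

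Among the peroxidases Gpx1 fell and Gpx3 rose. Gpx1 (chr9:108338903-108340343), the cytosolic enzyme, was 1673, 1203, 1743, 768, 1374 and 320, and fell by 4.29-fold in Atf4-/- livers (log2 -2.10, error 1.22). Gpx3 (chr11:54902453-54910377), the secreted peroxidase of plasma, was 4.84, 5.29, 3.12, 9.50, 4.24 and 28.0. It rose by 3.04-fold in Gcn2-/- (log2 1.57, error 1.14) and 6.59-fold in Atf4-/- livers (log2 2.69, error 1.05), and under ASNase was 2.95-fold higher in Atf4-/- than in Gcn2-/- livers. The intervals in both knockout ASNase groups (5.13 to 13.9 and 16.0 to 40.0) did not overlap each other. With a pseudocount of 1 the log2 differences were 1.35 for the Gcn2-/- response and 1.46 between the knockout strains, below the limit. Gpx4, which reduces lipid peroxides within membranes, was 404, 366, 536, 297, 324 and 294, with a log2 change of -0.14 in Atf4-/- livers. Gpx7 was between 0.773 and 4.03.

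The responses were next compared between strains. In Gcn2-/- livers 9 of 29 members had a response that differed from WT by over 1.5 and by more than its error, as did 3.87% of all 8650 genes. They were Gclc, Gsta1, Gsta2, Gsta4, Gstm1, Gstm4, Gstt2, Gsto1 and Mgst3, all with the lower response in Gcn2-/- livers. In Atf4-/- livers 10 of 27 did, against 6.21% of 8770 genes: Gclc, Gsta2, Gsta3, Gsta4, Gstm2, Gstp1, Gstt1, Gstt2 and Mgst3 with the lower response, and Gpx3 with the higher. Sex and ASNase cannot be told apart in the WT response, which enters both differences.

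Of 12 members that fell in either knockout strain, 6 fell in both: Gclc, Gsta2, Gsta4, Gstt1, Gstt2 and Mgst3. Gstm1 and Gstm4 were called in Gcn2-/- livers alone, and Gpx1, Gsta3, Gstm2 and Gstp1 in Atf4-/- livers alone. A call in 1 strain alone does not show that the responses differed. Only Gstp1 passed the limits for a difference of responses between the knockout strains. That is 1 of 27 members, near the 3.37% of all genes, and the difference was not tested. Over the 27 members compared in both strains, 23 were lower after ASNase in both, and 16 of the 27 had the lower response in Atf4-/- livers. The comparisons share no mice. Pearson's r between them was 0.74 and Spearman's rho 0.56 over these members, and Pearson's r was 0.65 over all 8911 genes, values given as a description since paralogs share sequence and genes are not independent.

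**Figure D5:**
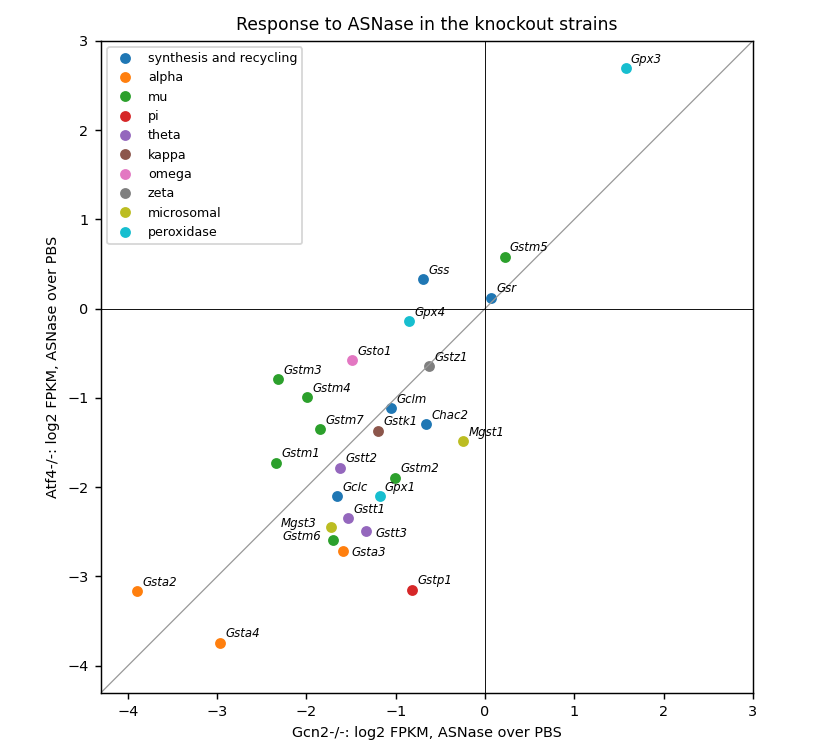
The log2 FPKM ratio of ASNase over PBS in Gcn2-/- (horizontal axis) and Atf4-/- livers (vertical axis) for the 27 members compared in both strains, coloured by class; the grey line marks equal responses. Of the points, 23 lie in the lower left quadrant, Gpx3 lies at the upper right, and Gstp1 lies far below the line.

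The lowest and highest group of each member were then counted. Of the 30 members over FPKM 3 in at least 1 group, 22 had their lowest value in Atf4-/- ASNase livers, as did 30.7% of 9815 genes, and 5 in Gcn2-/- ASNase livers, as did 13.4%. In 0 members was a WT group the lowest, as compared with 16.0% of genes for WT PBS and 13.3% for WT ASNase. The highest value was in Gcn2-/- PBS livers for 13 members (18.5% of genes), in WT PBS livers for 8 (9.16%), in Atf4-/- ASNase livers for 4 (33.95%), in WT ASNase livers for 3 (9.57%) and in Atf4-/- PBS livers for 2 (10.2%).

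Further genes of glutathione metabolism were read from lists of cysteine supply, the gamma-glutamyl cycle, glutaredoxins and glyoxalases, NADPH supply, selenoprotein synthesis, related transferases, regulators, NRF2 targets and export of conjugates. Of 78 listed genes 76 were found. In WT livers 0 of 64 were called after ASNase, in Gcn2-/- livers 3 of 63 fell and 1 rose, and in Atf4-/- livers 5 of 64 fell and 2 rose. Among all genes 2.13% fell and 1.56% rose in Gcn2-/- and 4.63% fell and 2.74% rose in Atf4-/- livers, so these counts lie near the background. The medians were 0.00, -0.19 and -0.20 on the log2 scale, nearer to 0 than those of the members.

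Those that fell in Atf4-/- livers were Idh1, a cytosolic source of NADPH (178 under PBS and 38.2 under ASNase), Glo1, the glyoxalase that uses glutathione to clear methylglyoxal (243 and 69.0), Glrx, a glutaredoxin (32.1 and 10.7), Suox, sulfite oxidase (49.3 and 16.4), and Aldh3a2, a fatty aldehyde dehydrogenase (126.5 and 18.3). In Gcn2-/- livers Me1, malic enzyme, fell from 54.7 to 17.1, Osgin1 from 130 to 25.1, and Alox5ap from 20.9 to 0.976. The Alox5ap estimates were very uncertain in other groups. Against WT ASNase livers (23.2) the Gcn2-/- ASNase value was not called (log2 -4.43, error 5.68). In Atf4-/- livers Alox5ap was 43.6 under PBS and 97.8 under ASNase, also without a call (error 8.21). Hmox1, heme oxygenase, rose in both strains, from 13.0 to 40.3 in Gcn2-/- and from 14.7 to 55.3 in Atf4-/- livers. Chac1, a paralog of Chac2 that degrades glutathione, rose in Atf4-/- livers from 3.06 to 23.7 and was between 1.81 and 3.16 in the WT and Gcn2-/- groups.

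None of the 14 listed regulators was called in any ASNase response. Nfe2l2, which encodes NRF2, was between 29.7 and 39.5 in the 6 groups. Of 7 NRF2 targets outside the glutathione enzymes that were compared, 1 rose and 1 fell in each knockout strain. For selenoprotein synthesis, on which several GPX enzymes depend, 0 of 7 genes were called. The cysteine supply list also holds genes of cysteine breakdown. Its 1 call among 7 genes was the sulfite oxidase Suox, which does not supply cysteine.

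Markers of cell types were read beside these values. For hepatocytes, 8 of 10 markers had estimates in all groups and summed to 20830, 18060, 22050, 11500, 18610 and 8720, lowest in the knockout ASNase groups. Over the markers that could be compared, the median log2 change was -0.11 in WT (0 of 10 called), -0.74 in Gcn2-/- (0 of 9 called) and -1.18 in Atf4-/- livers (1 of 8 fell). None of the 8 was at 0. Single markers differed in direction: in Atf4-/- livers Ttr was 3541 under PBS and 854 under ASNase, and Tat was 952 and 2013.

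Other lists moved as well. Erythroid markers (5 of 7 found) summed to 136, 75.2, 80.6, 8.36, 110 and 4.29, with Slc4a1 at 0 in Gcn2-/- ASNase. The 7 pancreatic acinar markers summed to between 4.94 and 14.1 in the PBS groups and Gcn2-/- ASNase, nearly all of it Cela1 (4.92 to 13.4). They summed to 51.4 in WT ASNase and to 296 in Atf4-/- ASNase. Prss2, Cpa1, Pnlip, Cel and Amy2a5 were listed at 0 in both Gcn2-/- groups. The 7 skeletal muscle markers summed to 665 and 968 in WT livers and to between 5.47 and 114 in the others, with Myh4 at 0 in Gcn2-/- PBS. The 4 lung markers summed to 132 in WT PBS and to between 0.723 and 2.05 elsewhere. Kupffer cell markers (4 of 5 found) summed to between 110 and 235, with 1 of 4 (Marco) higher after ASNase in each knockout strain, 1 of 4 lower in Atf4-/- livers and list medians of -0.56 and -1.26, neutrophil markers between 1.33 and 15.2, sinusoidal endothelial markers between 53.6 and 117, stellate cell markers between 82.5 and 136, cholangiocyte markers between 20.1 and 39.8 and kidney tubule markers between 0.00538 and 1.21. The part of these cell types in the member values was not tested.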

How the data were processed

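Liver poly-A RNA of 18 mice was sequenced, and groups were taken from the sample labels. The authors aligned reads to mm10 with TopHat and estimated FPKM with Cuffdiff, pooling the 3 libraries of a group. The deposited FPKM values, their interval bounds and a status are 1 of each per gene and group; 0 value columns were left unmapped. Depth per library and values of single libraries were not used here, so no test could be made and precision rests on the intervals alone. Calls used an FPKM limit of 3, a log2 limit of 1.5, a pseudocount of 0.1 and separate intervals. The limits of fold and level are those of the study's methods. The rule was also run on simulated data, made from a single group with large changes and little noise. That run cannot show how often calls err at the differences and errors found here.

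Values in all 6 groups are given for members called at least once and for synthesis and recycling genes, and the others by range; pathway genes are named where called in an ASNase response. The members and lists were chosen with earlier results of these data known. Gene positions and transcripts are from GENCODE M21 (GRCm38), promoters from RefSeq. Alternatives were another pseudocount, FPKM limit, fold limit and interval condition, and median-ratio scaling.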

Additional observations from a re-analysis of the deposited data

Results flagged for a closer look

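For 3 members the WT value after ASNase was above the PBS value, the knockout value was below it, each of these changes was over 0.1 in size on the log2 scale, and the responses differed by over 1.5 and by more than their error. Gstm3 and Gclm had opposite signs too, with differences within their error. Gsto1 differed by -1.53 in Gcn2-/- livers, but its WT change was 0.04. The difference was not tested, since each group has 1 pooled value, and in all 3 the WT intervals overlapped. Gsta2 differed in response from WT by -4.33 on the log2 scale in Gcn2-/- livers and by -3.59 in Atf4-/- livers, and its WT change was 0.42. Gsta1 differed by -3.10 in Gcn2-/- livers, with a WT change of 1.31, and is the gene most open to shared reads. Gstt2 differed by -1.94 in Gcn2-/- and by -2.10 in Atf4-/- livers, with a WT change of 0.32.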

How the results depend on the processing

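Of 48 calls of single members, 46 kept their direction and stayed past the limits under every alternative run (a pseudocount of 1, no FPKM limit, a log2 limit of 1, no interval condition, the combined interval and median-ratio scaling). Leaving out the FPKM limit or the interval condition and lowering the log2 limit only relax the rule and cannot remove a call, so only the other alternatives bear on this. The exceptions were both Gpx3 and both lost the call with a pseudocount of 1. Counts of called members moved over 1.5 times in 2 comparisons. For the Gcn2-/- response 14 members were called with no interval condition, as compared with 9. Between the knockout strains under ASNase, 7 were called with no interval condition, 4 with the combined interval and 1 with a pseudocount of 1, as compared with 2. Those counts follow from the alternatives, which relax the condition on error or shrink low values. No paired analysis was possible because the values of the 3 libraries of a group are pooled, and leaving out each replicate was not run for the same reason. The interval width limits calls to large differences, and sex and group cannot be told apart in the comparisons in which the number of males differed.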
